A study of Mus musculus with 48 samples.

Results

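The genes described here are 10 genes of neutrophils and of the chemokines that call them in, out of 55450 genes in the count table: the CXCR2 ligand genes Cxcl1, Cxcl2, Cxcl3 and Cxcl5, the receptor gene Cxcr2, the alarmin genes S100a8 and S100a9, the cytokine gene Il1b, the receptor gene Csf3r and the neutrophil gene Retnlg. The list was chosen from earlier results of these same libraries, in which Cxcl5 had one of the lowest p-values between anti-PD-1 and IgG at 6 hours, so all values at 6 hours are given as a description without a test. RNA was sequenced from 48 mouse melanomas in 16 conditions, with 3 tumors per condition and 1 tumor per library. The first experiment was a time course of 30 tumors in wild-type (WT) mice, sampled untreated at 0 hours, and at 6 hours, day 1 and day 3 either untreated or after IgG or anti-PD-1. The second experiment held 18 tumors of WT and iNOS knockout (KO) mice, untreated or after IgG or anti-PD-1. The harvest of these tumors at day 7 is known from the published protocol and not from the titles. C57BL/6J WT and iNOS KO mice arrived at 4 weeks of age, were housed for 2 weeks, and received B16-D5 cells, a subclone of the mouse melanoma line B16, under the skin of the flank on day -8. By the published protocol antibody was given at 250 µg per mouse on days 0 and 3. Tumors taken at 6 hours and day 1 thus preceded the day 3 dose, and whether those of day 3 did is not stated. The KO mice lack iNOS, the nitric oxide synthase encoded by Nos2, in the host only, and the melanoma cells in them were not iNOS KO.

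Neutrophils are short-lived phagocytes that leave the blood along gradients of ELR-positive CXC chemokines. In mice, Cxcl1, Cxcl2, Cxcl3 and Cxcl5 encode such chemokines, which are made by macrophages, epithelial and stromal cells and by some tumor cells, and which bind the receptor CXCR2 on neutrophils. S100a8 and S100a9 encode the subunits of calprotectin, among the most abundant proteins of the neutrophil cytosol, Retnlg encodes a resistin-like protein of neutrophils and their precursors, Csf3r encodes the receptor of the growth factor G-CSF, and Il1b encodes interleukin 1β, which induces the chemokine genes in other cells. In melanoma, cells carrying such genes are often studied as myeloid suppressors of T cell responses.

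The 4 chemokine genes lie on the same strand of chromosome 5 within 146.579 kb (mm10): Cxcl5 at chr5:90759360-90761624, Cxcl3 at chr5:90786103-90789600, Cxcl1 at chr5:90891241-90893115 and Cxcl2 at chr5:90903871-90905938. S100a8 (chr3:90668978-90670035) and S100a9 (chr3:90692632-90695721) are neighbors on chromosome 3, separated by 22.596 kb and read from opposite strands. The other genes stand alone, Cxcr2 at chr1:74153989-74161246, Il1b at chr2:129364570-129371139, Csf3r at chr4:126024550-126044440 and Retnlg at chr16:48872621-48874496.

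Promoter windows from RefSeq (GRCm38.p6, the build also called mm10) matched 9 of the 10 genes, all but Cxcl5. Those of Cxcl1 (chr5:90890995-90891240), Cxcl2 (chr5:90903649-90903870) and Cxcl3 (chr5:90785851-90786100), all on the forward strand, are shown because these neighboring ligand genes share a binding motif. They run 5′ to 3′ and end before the first annotated transcribed base, with capitals for the kappaB consensus, the motif of NF-κB, and for TATAAA.
Cxcl1: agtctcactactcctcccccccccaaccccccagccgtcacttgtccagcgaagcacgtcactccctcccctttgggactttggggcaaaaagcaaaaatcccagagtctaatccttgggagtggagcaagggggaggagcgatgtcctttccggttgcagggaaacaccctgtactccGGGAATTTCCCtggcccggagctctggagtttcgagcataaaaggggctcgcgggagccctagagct
Cxcl2: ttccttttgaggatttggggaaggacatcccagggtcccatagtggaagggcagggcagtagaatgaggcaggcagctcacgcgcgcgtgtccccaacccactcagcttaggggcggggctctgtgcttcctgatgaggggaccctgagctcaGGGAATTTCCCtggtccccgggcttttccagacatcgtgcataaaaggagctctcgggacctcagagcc
Cxcl3: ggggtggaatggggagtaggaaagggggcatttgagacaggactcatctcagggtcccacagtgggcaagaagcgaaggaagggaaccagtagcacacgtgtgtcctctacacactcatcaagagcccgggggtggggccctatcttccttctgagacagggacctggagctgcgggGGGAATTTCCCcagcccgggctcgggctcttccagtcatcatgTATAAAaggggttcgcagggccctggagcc
Each of the 3 windows holds the same run, GGGAATTTCCC, which matches the kappaB consensus on either strand in overlapping letters. Of the 9 matched genes, whose windows were 141 to 250 bases long without transcribed bases, only these 3 had a kappaB match. Of all 32851 RefSeq promoters, 3.9% have one within the 250 bases before the start. The 3 genes are neighbors with the same run, so they do not count as independent matches, and the shares were not tested. TATAAA was found, on either strand, in the windows of Cxcl3 and Il1b and in 12.4% of all promoters. A match is a description of the letters and does not show that a factor binds there.

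Levels are given as CPM, the count of a gene scaled to a common library total after TMM normalization, and libraries held 25574203 to 47687872 counts in the time course and 11625862 to 40959309 in the second experiment. At these depths 3 counts, the upper limit allowed by a count of 0, equal 0.0688 to 0.105 CPM and 0.0766 to 0.201 CPM, respectively, which covers counting error only. The 1502 genes of olfactory, vomeronasal and taste receptors, which tumors should hardly express, made up 15.4 to 306.3 CPM in the time course and 12.8 to 218.3 CPM in 15 libraries of the second experiment. Their share was higher in 3 libraries, reaching 2888 CPM in WT anti-PD-1 replicate 3, 1206 CPM in WT anti-PD-1 replicate 4 and 888.6 CPM in KO untreated replicate 1, and the values of these receptor-rich libraries are named beside the results. Nos2 did not separate the genotype labels, at 1.16 to 5.95 CPM in the 9 tumors of KO mice and 1.40 to 7.43 CPM in the 9 tumors of WT mice of that experiment, so the genotypes are those of the titles.

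Of the neutrophil genes among the 10, several were close to absent from the counts. S100a8 had 0 counts in 32 of 48 libraries and 139 counts over all of them, S100a9 had 0 counts in 32 libraries and 93 counts in all, and Retnlg had 0 counts in 38 libraries and 66 counts in all. Cxcr2 and Cxcl3 were each at 0 in 25 libraries. These 5 genes had more than 3 counts in 11, 11, 7, 16 and 18 libraries, respectively. By contrast, Il1b and Csf3r exceeded 3 counts in all 48 libraries, Cxcl5 in 41, Cxcl2 in 38 and Cxcl1 in 34.

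**Figure D1:**
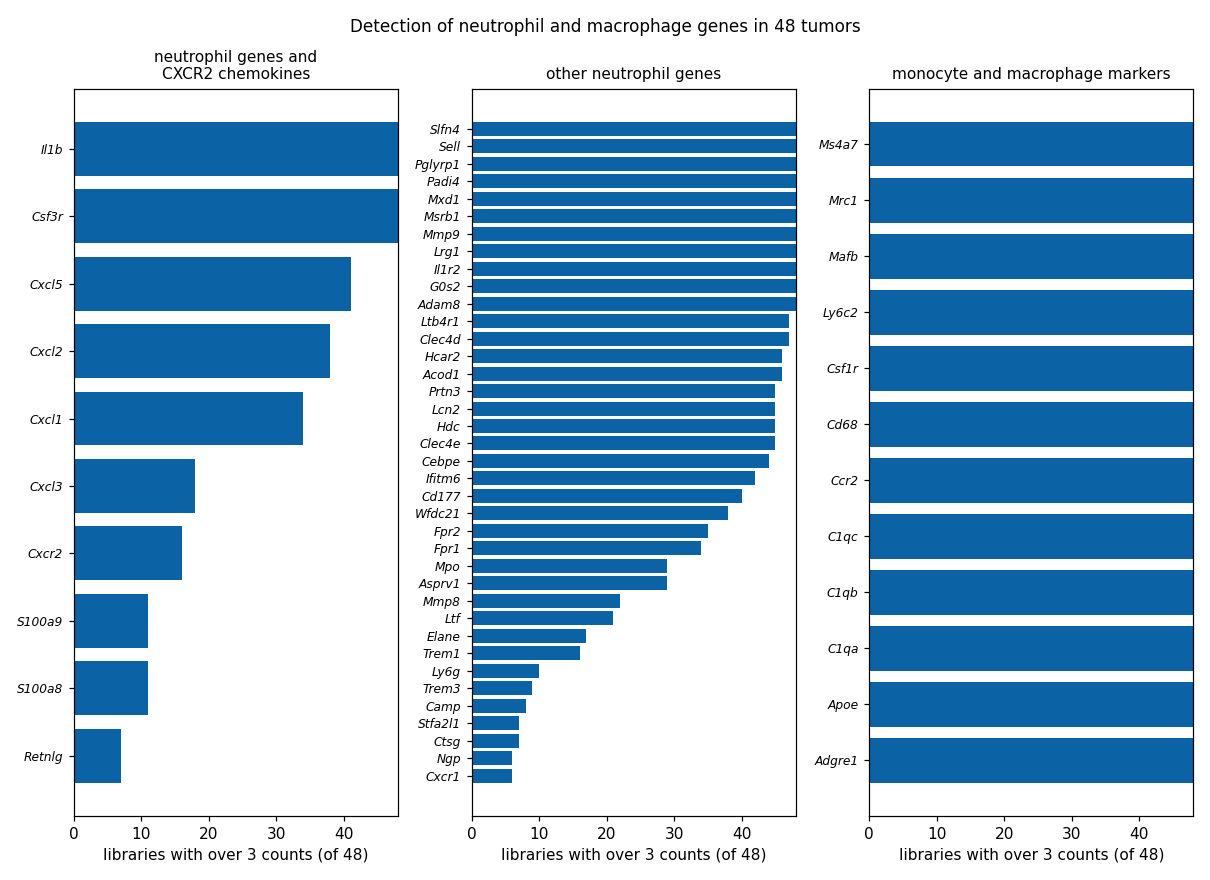
Number of the 48 libraries with more than 3 counts (horizontal axis) for the 10 genes (left), 38 other neutrophil genes (middle) and 12 monocyte and macrophage markers (right). S100a8, S100a9 and Retnlg passed 3 counts in 11, 11 and 7 libraries, while all 12 macrophage markers did so in all 48.

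The 38 other neutrophil genes were measured unevenly, and in each experiment 27 of them had more than 3 counts in most libraries. Some of the genes most used to mark the lineage were as sparse as S100a8 and S100a9. Ly6g, the antigen commonly used to gate mouse neutrophils, was at 0 in 23 of 30 libraries of the time course and 12 of 18 of the second experiment. Ngp and Camp, which encode granule proteins, were at 0 in 26 and 23 of 30 and in 13 and 14 of 18 libraries, and Cxcr1, the related chemokine receptor, was at 0 in 27 of 30 and 15 of 18. In the time course, 9 of the 38 genes had a median of 0 CPM and 13 never reached 1 CPM. Other granule and surface genes of neutrophils were found in most tumors at low levels: in the time course Prtn3 and Lcn2 each passed 3 counts in 28 of 30 libraries (medians 0.546 and 0.683 CPM), Cd177 in 26 (0.424 CPM), Mpo in 21 (0.301 CPM) and Mmp9 in all 30 (1.86 CPM). The highest medians of the list were those of Adam8 (32.7 CPM), Mxd1 (23.9 CPM), Msrb1 (18.8 CPM) and Padi4 (14.3 CPM), which are also expressed in other cells. The 12 monocyte and macrophage markers, on the other hand, were found in every library, with a summed level of 793 to 4072 CPM in the time course and 662.5 to 2969 CPM in the second experiment. Bulk RNA does not tell apart fewer cells of a type from less RNA per cell.

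Per kilobase of exon, which allows levels of different genes to be compared, Csf3r was the highest of the 10 genes in the time course, with a median of 1.81 CPM per kb over 30 libraries, ahead of Il1b at 0.666, Cxcl5 at 0.177, Cxcl1 at 0.142 and Cxcl2 at 0.115 CPM per kb. Cxcl3 had a median of 0.0084 CPM per kb, and Cxcr2, S100a8, S100a9 and Retnlg had a median of 0. In the second experiment Csf3r again came first at 1.54 CPM per kb, followed by Il1b at 0.729, Cxcl5 at 0.676, Cxcl2 at 0.368 and Cxcl1 at 0.208 CPM per kb. The experiments were normalized separately, so these levels are not compared between them.

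Each experiment was tested with edgeR's quasi-likelihood test over all genes, with p-values adjusted by the Benjamini-Hochberg method and a threshold of 0.05. Of the 10 genes, 7 passed the filter on low counts in the time course (all but S100a8, S100a9 and Retnlg) and 8 in the second experiment (all but S100a9 and Retnlg), which gave 106 tests over 14 comparisons. None of the 106 was called by edgeR, 5 of them (4.72%) had an unadjusted p under the threshold, and DESeq2 called 1. The share of all genes called by DESeq2 is not given. The lowest adjusted p was 0.126, for Cxcr2 between KO and WT tumors after anti-PD-1. For the 6 comparisons of the time course, the share of all genes called by edgeR was 0%. In the second experiment it was 0.603% between untreated KO and WT tumors, 0.00973% between KO and WT over all treatments, 0.139% between IgG and untreated tumors over both genotypes, and 0% in the other 5 comparisons. The median log2 fold change of all genes was itself shifted in comparisons with the receptor-rich libraries, to -0.92 between KO and WT after anti-PD-1, 0.76 between anti-PD-1 and IgG in WT and 0.50 between untreated KO and WT tumors.

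Cxcl5, the ligand through which the genes were selected, had the widest range of the chemokine genes. At 6 hours the 3 anti-PD-1 tumors had 0, 0 and 0.0286 CPM, beside 0.366, 0.461 and 3.23 CPM in the IgG tumors and 0.721, 0.379 and 0.421 CPM in the untreated tumors. The anti-PD-1 tumors lay below all tumors of both other groups. They had a single count among them, against 120 counts after IgG and 52 in untreated tumors. The share of all genes that separated in this way at 6 hours was not counted. At day 1, 12.6% of all genes did not overlap between IgG and untreated tumors. Of the 120 IgG counts, 92 came from one tumor.

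At the later times Cxcl5 did not show this separation. At day 1 it was at 0, 0.418 and 0.225 CPM after anti-PD-1, 1.54, 0.242 and 0.154 CPM after IgG, and 1.32, 0.938 and 0.0524 CPM in untreated tumors. The 3 groups overlapped, and the log2 fold change of anti-PD-1 against IgG was -1.56 ± 1.33 (SE; edgeR adjusted p = 1). Without the IgG tumor at 1.54 CPM it was 0.074. At day 3 the values were 1.17, 0.0561 and 1.34 CPM after anti-PD-1 and 1.56, 0.213 and 0.724 CPM after IgG, again overlapping, with a log2 fold change of 0.05 ± 1.28 (edgeR adjusted p = 1). Untreated tumors of day 3 had 0, 0.152 and 0.276 CPM of Cxcl5, and the IgG tumors overlapped them at 0.213 CPM, with a log2 fold change of IgG against untreated of 2.52 ± 1.38 (edgeR adjusted p = 1). Ordered by the median of 3 tumors, the time course ran from 0 CPM (anti-PD-1, 6 hours) and 0.152 CPM (untreated, day 3) up to 0.938 CPM (untreated, day 1) and 1.17 CPM (anti-PD-1, day 3). Every group overlapped its neighbors in this order.

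At day 7, Cxcl5 was detected in all 18 tumors. In WT mice it was at 0.424, 1.58 and 4.00 CPM in untreated tumors, 1.01, 0.515 and 1.55 CPM after IgG, and 0.498, 2.75 and 1.77 CPM after anti-PD-1. In KO mice it was at 0.417, 0.746 and 1.08 CPM in untreated tumors, 0.353, 3.16 and 7.03 CPM after IgG, and 1.44, 0.157 and 1.67 CPM after anti-PD-1. All 6 groups overlapped, and within KO mice given IgG the tumors spanned the widest range of the series. The log2 fold change of anti-PD-1 against IgG was 0.69 ± 0.97 in WT (edgeR adjusted p = 0.651) and -1.68 ± 0.98 in KO (edgeR adjusted p = 1). The difference between the genotypes in this response was -2.38 ± 1.37 (edgeR adjusted p = 0.697), beside a median of -0.54 for all genes. With each tumor left out in turn these values ran from 0.13 to 1.02 in WT, from -2.22 to -0.68 in KO and from -2.81 to -1.27 for the difference. The WT value lies near the median of all genes in that comparison, 0.76, and rests on the receptor-rich libraries. Without them it was -1.05, with a single anti-PD-1 tumor left in WT that is assumed to vary like the other groups, and the difference between the genotypes was -0.63. Between KO and WT, Cxcl5 differed by 1.78 ± 0.98 after IgG (edgeR adjusted p = 0.600) and by -1.41 ± 0.98 in untreated tumors (adjusted p = 0.384, beside a median of 0.50 for all genes). Neither passed the threshold, and with each tumor left out in turn they ran from 0.74 to 2.24 and from -1.89 to -0.43. Without the receptor-rich KO untreated replicate 1 and the other receptor-rich libraries the value in untreated tumors was -1.13.

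**Figure D2:**
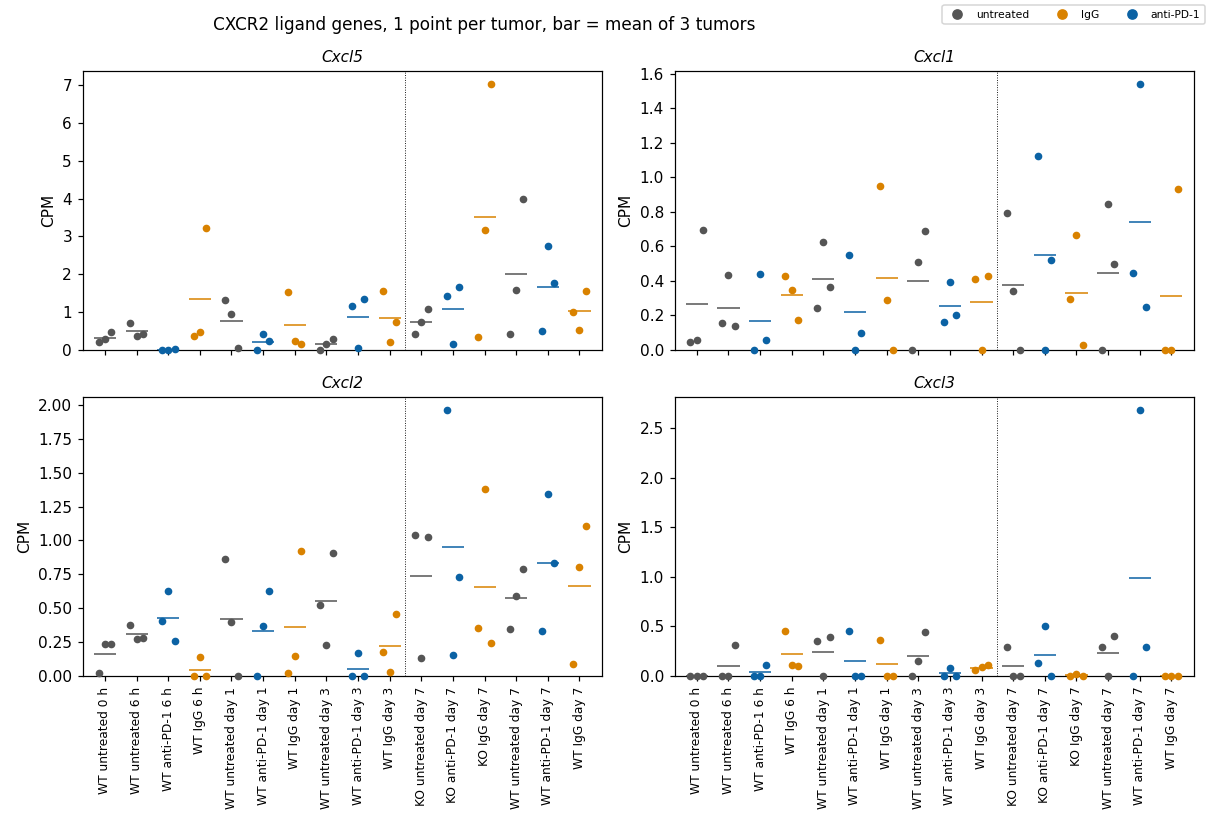
Level in CPM (linear axes) of Cxcl5, Cxcl1, Cxcl2 and Cxcl3 in each of the 48 tumors (points) in 16 conditions, with the mean of 3 tumors as a bar and a dotted line between the separately normalized experiments. Cxcl5 lay at 0 to 0.0286 CPM after anti-PD-1 at 6 hours and reached 7.03 CPM in a KO tumor given IgG, and the highest Cxcl3 value, 2.68 CPM, is WT anti-PD-1 replicate 3.

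Cxcl2, a ligand known as a product of activated macrophages, was lowest after IgG at 6 hours. It was at 0.409, 0.627 and 0.257 CPM after anti-PD-1, 0, 0.144 and 0 CPM after IgG, and 0.376, 0.271 and 0.281 CPM in untreated tumors. Here the IgG tumors lay below both other groups, with 5 counts against 45 after anti-PD-1 and 32 in untreated tumors. The anti-PD-1 and untreated tumors overlapped. As for Cxcl5, the share of all genes separating in this way at 6 hours was not counted. At day 3 the anti-PD-1 tumors were at 0, 0.168 and 0 CPM and the IgG tumors at 0.176, 0.0304 and 0.456 CPM, with overlapping groups (log2 fold change -1.95 ± 1.71, edgeR adjusted p = 1). Cxcl2 was found in all 18 tumors at day 7, from 0.089 to 1.96 CPM, without a called difference.

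Cxcl1, which encodes the chemokine also called KC, varied widely between tumors of a group. Its group means in the time course ran from 0.165 ± 0.239 CPM (SD, n = 3; anti-PD-1 at 6 hours) to 0.414 ± 0.487 CPM (IgG at day 1). At day 7 they ran from 0.310 ± 0.538 CPM (WT, IgG) to 0.743 ± 0.697 CPM (WT, anti-PD-1), and the highest tumor, at 1.54 CPM, was WT anti-PD-1 replicate 3. In 10 of 48 libraries Cxcl1 was at 0. None of its log2 fold changes in the 14 comparisons was called.

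Cxcl3 was sparser than the other ligands, and 3 of its comparisons had a low unadjusted p. Untreated tumors were at 0, 0 and 0 CPM at 0 hours and at 0, 0.152 and 0.442 CPM at day 3. The groups overlapped at 0 (edgeR adjusted p = 0.699), where 6.89% of all genes had an unadjusted p under the threshold, Cxcl3 among them. In WT mice at day 7 it was at 0 in all 3 IgG tumors and at 0, 2.68 and 0.295 CPM after anti-PD-1 (edgeR adjusted p = 0.308), in a comparison where 16.1% of all genes had an unadjusted p under the threshold. The tumors with counts were WT anti-PD-1 replicates 3 and 4, with 40 and 6 counts. A gene of its exon length read at the mean rate of the receptor genes would have 27.4 and 15.6 counts there. Without these libraries, the remaining tumors of that comparison were at 0. For IgG against untreated tumors over both genotypes edgeR gave an adjusted p = 0.396, in a comparison where 10.6% of all genes had an unadjusted p under the threshold. Cxcl3 was at 0 in 5 of 6 IgG tumors and at 0 to 0.409 CPM in the untreated ones. The only untreated KO tumor with Cxcl3, at 0.292 CPM (7 counts), was the receptor-rich replicate 1, and the value of 0.409 CPM was in a WT tumor.

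Cxcr2, the receptor of these ligands, gave the lowest adjusted p of the 106 tests. After anti-PD-1 at day 7 it was at 0 in all 3 KO tumors and at 0, 1.67 and 0.886 CPM in the WT tumors. The groups overlapped at 0, and the WT tumors with Cxcr2 were the receptor-rich replicates 3 and 4. The edgeR adjusted p was 0.126, in a comparison where 33% of all genes had an unadjusted p under the threshold, and DESeq2 called it. The share of all genes called by DESeq2 there is not given, so the call is not read as particular to Cxcr2. Without the receptor-rich libraries all remaining tumors of that comparison were at 0. Cxcr2 passed the filter on low counts through libraries that included WT anti-PD-1 replicates 3 and 4, and without both it would not have passed. Its p-values in that comparison are therefore a description and no support for a difference. Replicates 3 and 4 had 25 and 18 Cxcr2 counts, beside 23.9 and 13.6 counts at the mean rate of the receptor genes for a gene of its exon length. In untreated tumors the order was opposite, with 0.375, 0.102 and 0.108 CPM in KO and 0, 0 and 0.0292 CPM in WT tumors, which did not overlap, as was the case for 17.6% of all genes in either direction (edgeR adjusted p = 0.329). These were 9, 3 and 4 counts in KO and 0, 0 and 1 in WT. The highest is KO untreated replicate 1, also receptor-rich, and the other KO tumors lie at or near the 3 counts that a count of 0 allows.

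In the time course Cxcr2 never exceeded 0.398 CPM. Its highest group was untreated tumors of day 1, at 0.242, 0.398 and 0.236 CPM, above all 3 IgG tumors of that day at 0.128, 0 and 0 CPM. The groups did not overlap, as for 12.6% of all genes in either direction. This was 32 against 5 counts, with an edgeR adjusted p = 0.940. At 6 hours all 3 anti-PD-1 tumors were at 0.

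S100a8 and S100a9, whose proteins form a heterodimer, were each above 0 in 16 of 48 tumors, and 7 tumors (43.8% of either set) had counts of both. In the time course S100a8 was above 0 in 10 of 30 libraries, with a highest value of 0.543 CPM, and S100a9 in 8 of 30, with a highest value of 0.314 CPM, both in the same anti-PD-1 tumor of 6 hours. All 3 untreated WT tumors at day 7 lacked counts of either gene. The highest values of the series, 1.34 CPM of S100a8 and 1.14 CPM of S100a9, were in WT anti-PD-1 replicate 3, where Retnlg also peaked at 1.14 CPM. That library had 20, 17 and 17 counts of S100a8, S100a9 and Retnlg, above the 5.44, 4.09 and 4.65 counts of the mean receptor rate for genes of their exon length. The part of the receptor-rich libraries in these values was not tested further. For S100a8, the only one of the 3 tested and only at day 7, the adjusted p for KO against WT was 0.153 after anti-PD-1 and 0.297 in untreated tumors (edgeR). S100a8 passed the filter on low counts only through KO untreated replicate 1, WT anti-PD-1 replicate 3 and KO IgG replicate 3. These p-values are therefore a description and no support for a difference. Without the receptor-rich libraries all tumors after anti-PD-1 were at 0, and the untreated tumors left had 0 and 2 counts in KO and 0 in WT.

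**Figure D3:**
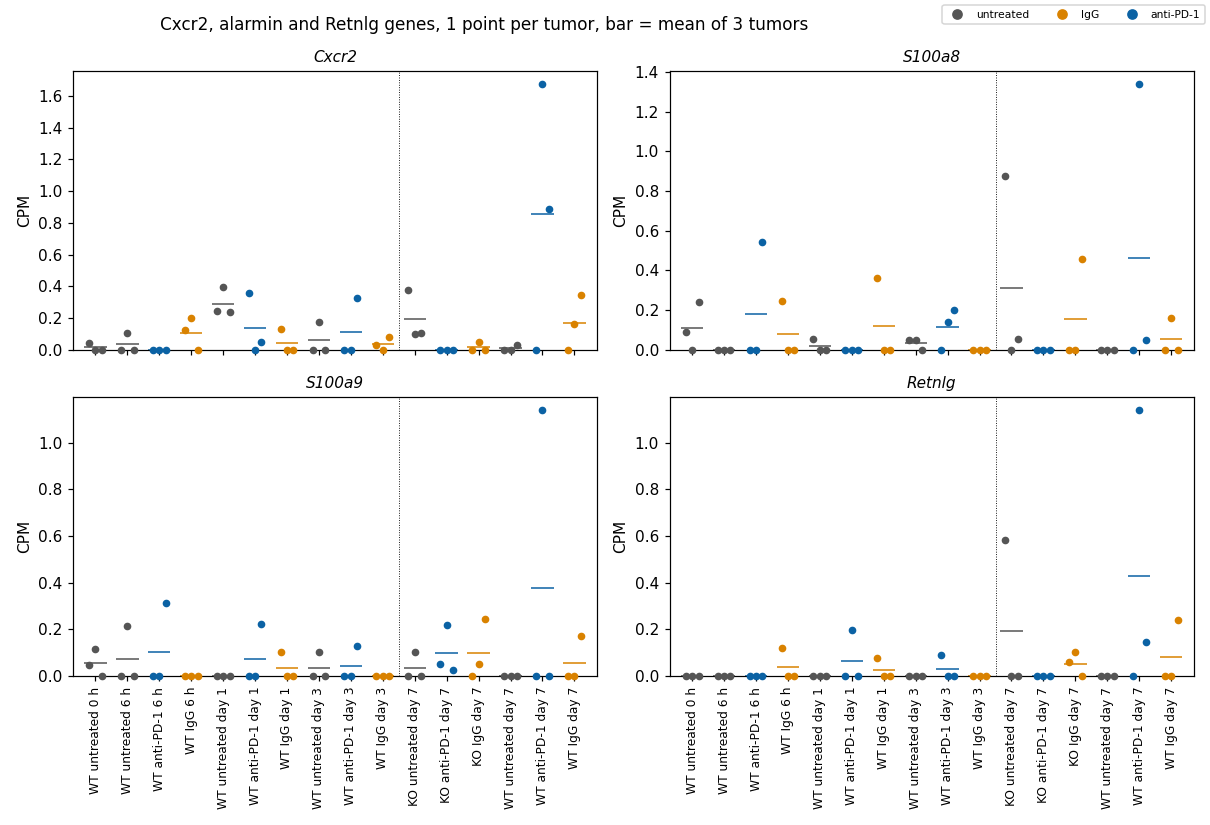
Level in CPM (linear axes) of Cxcr2, S100a8, S100a9 and Retnlg in each of the 48 tumors (points) in 16 conditions, with the mean of 3 tumors as a bar and a dotted line between the separately normalized experiments. Most points lie at 0, and the highest of each gene, 1.67, 1.34, 1.14 and 1.14 CPM, is WT anti-PD-1 replicate 3.

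Il1b was present in all 48 tumors at a low level, between 0.205 and 3.26 CPM in the time course and between 0.627 and 3.57 CPM at day 7. Its group means were close together in the time course, from 0.926 ± 0.402 CPM (anti-PD-1, day 1) to 1.67 ± 1.46 CPM (untreated, 6 hours; SD, n = 3), and all 10 groups overlapped their neighbors in the order of medians. Untreated KO tumors had 1.50, 1.59 and 3.13 CPM and untreated WT tumors 0.848, 1.53 and 1.08 CPM. These groups overlapped, with a log2 fold change of 0.85 ± 0.70 (edgeR adjusted p = 0.469) beside a median of 0.50 for all genes. Without the receptor-rich libraries it was 1.03 (edgeR adjusted p = 0.662). Over all treatments KO and WT differed by 0.36 ± 0.40 on the log2 scale (edgeR adjusted p = 0.851, n = 9 against 9).

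Csf3r was the only one of the 10 genes with more than 1 CPM in every tumor, and its clearest difference lay between IgG and untreated tumors at day 1. It was at 13.4, 10.8 and 16.8 CPM after IgG, 2.69, 8.13 and 14.2 CPM after anti-PD-1, and 7.52, 4.66 and 4.82 CPM in untreated tumors. The IgG tumors lay above all untreated tumors, in a comparison where 12.6% of all genes did not overlap in either direction, and the anti-PD-1 tumors overlapped both. The log2 fold change of IgG against untreated was 1.27 ± 0.49 (edgeR adjusted p = 0.859), where 5.43% of all genes had an unadjusted p under the threshold, and it was 1.10 to 1.55 when each tumor was left out in turn. It thus did not pass the test over all genes. The summed level of the 12 macrophage markers was 1477 to 3188 CPM in the same IgG tumors and 1163 to 1859 CPM in the untreated ones. All 12 markers were higher after IgG, with a median log2 fold change of 0.86 against 0.04 for all genes and 0 of them called by edgeR (6 with an unadjusted p under the threshold). Markers of several other tissues also lay mostly on one side, with 0 called. The endothelial (4 of 6 higher, median 0.16), eosinophil and mast cell (6 of 9, 0.08), erythroid (3 of 5, 0.71) and platelet markers (3 of 4, 0.70) were more mixed. All 8 fibroblast markers were higher after IgG (median 0.80), as were all 6 adipocyte markers, 12 of 13 keratinocyte markers (5.61) and all 7 skeletal muscle markers (7.15), and all 7 melanoma markers were lower (-0.24). The muscle and keratinocyte medians rested on IgG replicate 6, with 7303 CPM of muscle markers against 3.44 and 6.45 CPM in the other IgG tumors, and without it they were -1.41 and 0.20. The log2 fold change of Csf3r without this tumor was 1.10. The part of the tissue makeup of the tumors in the Csf3r values was not tested.

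In the other comparisons no Csf3r difference was called. The log2 fold change of anti-PD-1 against IgG was -0.71 ± 0.49 at day 1, -0.38 ± 0.49 at day 3 and -0.77 ± 0.49 in WT mice at day 7 (edgeR adjusted p = 1, 1 and 0.369). The last stands beside a median of 0.76 for all genes and was -0.22 without the receptor-rich libraries, which left a single anti-PD-1 tumor. It depends on WT IgG replicate 3, which had 22.7 CPM against 5.55 and 5.31 CPM in the other WT IgG tumors, and without it the value was 0.21. The same tumor set the difference between KO and WT after IgG, -0.84 ± 0.49 (edgeR adjusted p = 0.600), which was 0.17 without it. Over all treatments KO and WT differed by -0.46 ± 0.28 (adjusted p = 0.523; -0.69 without the receptor-rich libraries), and day 3 and day 1 by -0.52 ± 0.28 (adjusted p = 0.400), both by edgeR.

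**Figure D4:**
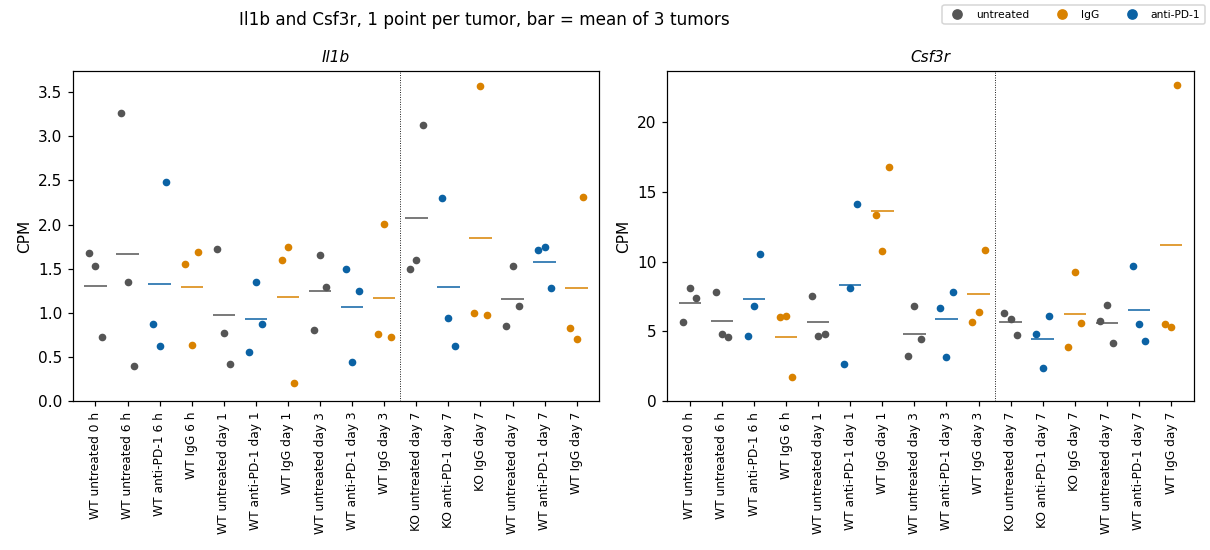
Level in CPM (linear axes) of Il1b and Csf3r in each of the 48 tumors (points) in 16 conditions, with the mean of 3 tumors as a bar and a dotted line between the separately normalized experiments. The 3 IgG tumors of day 1 have 10.8 to 16.8 CPM of Csf3r, above the untreated tumors of that day, and one WT IgG tumor of day 7 has 22.7 CPM.

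To see whether the genes rose and fell together between tumors of a group, log2(CPM + 0.5) was centered on the group mean and correlated for the 5 genes with more than 3 counts in most libraries, giving 10 pairs in each experiment. Of the 20 pairs none passed after adjustment (lowest adjusted permutation p = 0.249 for r and 0.316 for rho). Cxcl1 and Cxcl2 had the highest value, r = 0.65 and rho = 0.65 over 18 tumors at day 7 (permutation p = 0.0238 and 0.0206), and 0.55 without the 2 libraries farthest from the median of Cxcl1. Without the receptor-rich libraries r was 0.62 over 14 tumors. Close to it at day 7 were Cxcl2 with Il1b (r = 0.64, rho = 0.56, permutation p = 0.0469 and 0.0736) and Cxcl1 with Csf3r (r = 0.61, rho = 0.58, permutation p = 0.0343 and 0.0358). In the 30 tumors of the time course Cxcl1 and Cxcl2 had r = -0.17 and rho = -0.06 (permutation p = 0.538 and 0.795).

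Csf3r varied with the macrophage markers, in a comparison added after seeing the data and left out of the adjustment. No other marker list was correlated with Csf3r, so the link is not shown to be particular to macrophages. Within groups of the time course r was 0.66 and rho 0.66 (n = 30, permutation p = 0.00216 and 0.00063), and r was 0.57 without the 2 libraries farthest from the median of the markers. At day 7 r was 0.80 and rho 0.77 (n = 18, permutation p = 0.00643 and 0.00717), and r was 0.71 without 2 libraries. Without the receptor-rich libraries, r was 0.80 and rho 0.78 over the 14 tumors left in groups of more than 1.

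**Figure D5:**
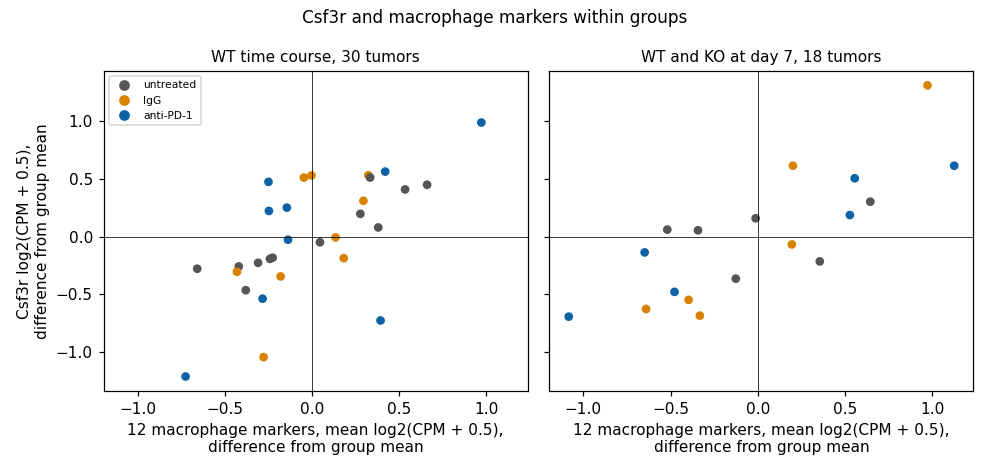
Csf3r against the mean of 12 monocyte and macrophage markers, both as log2(CPM + 0.5) minus the mean of the tumor's group, with 1 point per tumor. Tumors with more macrophage marker RNA than the other tumors of their group tended to have more Csf3r, with r = 0.66 over 30 tumors (left) and r = 0.80 over 18 tumors (right).

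Among 25456 genes tested in both experiments, the patterns most like each gene within groups were ranked by the smaller of the 2 values of r. For Csf3r, added after seeing the data, they were Tlr2 (0.75), B4galt1 (0.75), C1qc (0.74), P2ry6 (0.71) and Itm2b (0.70), of which C1qc, a complement gene of macrophages, is itself on the marker list. Il1b was most like Stat4 (0.66), Fcgr1 (0.58), Nos2 (0.58), Cd83 (0.57) and Tnfaip3 (0.57). Cxcl5 had Gm45114 (0.59), Lin7a (0.58), Mcoln2 (0.57), Tslrn1 (0.56) and Avpr1a (0.56). Cxcl1 had Gm14379 (0.72), B3gnt9 (0.70), 1110028F11Rik (0.67), Gm26690 (0.66) and Olfr1029 (0.66), the last an olfactory receptor gene. These values describe tumors that share libraries and depth, and they carry no test. S100a8 and Retnlg were not tested in both experiments and have no such genes.

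The wider CXCR2 and IL-1 pathway was measured through 34 further genes. Of its cytokines, Csf3, the gene of G-CSF, and Il17a, both known to raise neutrophil numbers, had a median of 0 CPM in both experiments, as did Cxcl15, another chemokine gene. Others were measured, with medians in the time course of 3.88 CPM for Il18, 1.60 CPM for Tnf, 0.391 CPM for Csf2, the gene of GM-CSF, and 0.105 CPM for Il6. Ppbp, a chemokine gene of platelets, had a median of 0 CPM in the time course. Among receptors and antagonists the medians in the time course were 19.1 CPM for Il1r1, 14.4 CPM for Il1rn, the gene of the IL-1 receptor antagonist, 32.5 CPM for Csf2rb and 63.1 CPM for Csf2ra, which encode chains of the GM-CSF receptor. Of the inflammasome genes that process interleukin 1β, Nlrp3 had a median of 2.54 CPM, Casp1 5.80 CPM and Pycard 6.42 CPM. No gene of this list and none of the other neutrophil genes was called in any of the 14 comparisons by edgeR.

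At day 1 most genes of both lists were higher after IgG than in untreated tumors, and 0 were called by edgeR. Of 31 tested pathway genes 28 were higher, with a median log2 fold change of 0.79 against 0.04 for all genes, and 10 had an unadjusted p under the threshold, as did 5.43% of all genes. Of 30 tested neutrophil genes outside the 10, 27 were higher, with a median of 0.80, and 3 had such a p. The 7 tested genes described here had 3 higher, 4 lower and a median of -0.20. The markers of macrophages, fibroblasts, adipocytes, muscle and keratinocytes were higher in the same IgG tumors, as given for Csf3r, and their part was not tested. Without IgG replicate 6, a choice made after seeing the data, 27 of 31 pathway genes (median 0.91) and 25 of 32 neutrophil genes (median 0.85) were higher, beside 0.05 for all genes, 10 of 12 macrophage markers (0.67), all 8 fibroblast markers (0.44) and all 6 adipocyte markers (0.99). Of the genes described here, 8 were then tested, 5 of them higher, with a median of 0.41. At day 3, 29 of 31 pathway genes and 22 of 30 neutrophil genes were higher after IgG, with medians of 0.57 and 0.33 against -0.03 for all genes. All 12 macrophage (0.73), all 8 fibroblast (0.83) and all 6 endothelial markers (0.40) were higher too. All 7 melanoma (-0.17) and all 7 muscle markers (-1.55) were lower, and 4 of 13 keratinocyte markers were higher (-1.06). The part of the tissue makeup was not tested. Between anti-PD-1 and IgG at day 1 the medians were -0.35 and -0.58, with 8 of 31 and 5 of 30 genes higher. This comparison shares its IgG tumors with that of IgG and untreated tumors at day 1. Macrophage (-0.29), adipocyte (-1.40), muscle (-2.54) and keratinocyte markers (-3.89) were mostly lower after anti-PD-1 too, and 5 of 7 melanoma markers were higher (0.10).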

How the data were processed

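Total RNA of 48 tumors was sequenced. Per the labels and methods, the authors removed adapters with cutadapt 1.8.1, aligned reads to mm10 with STAR 2.7.7a and estimated counts per gene with RSEM 1.3.0 on GENCODE vM21. The deposited table holds whole-number counts that were not normalized. A counting program other than RSEM appears in the table's name, and the values do not show which one made it. Conditions were taken from sample titles, because the treatment field matched the title in 14 of 48 samples and the genotype field gave WT for all 48 although 9 titles give KO. Day 0 titles were taken as 6 hours. Nothing in the labels says more of the mice than 1 tumor per library, and p-values measure the spread between these tumors.

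The 10 genes and all lists were chosen with earlier results of these data known. Both experiments had separate fits in edgeR 4.0.16 (R 4.3.3), using TMM, a coefficient for every condition and the quasi-likelihood F-test. After filterByExpr (minimum count 10) there were 26848 and 30837 genes, with 20 and 12 residual degrees of freedom. The Benjamini-Hochberg adjustment covered all genes of a comparison. The SE of a log2 fold change was calculated back from the test, as its absolute value divided by the square root of F. The fit was tested on simulated data, with changes planted only in genes of higher counts than most of the 10. It therefore does not show what could be detected for sparse genes such as Cxcr2 and Cxcl3. The text names the 10 genes in every comparison, up to 3 called genes per direction of every other list (there were none), the 5 genes most like S100a8, Retnlg, Cxcl5, Cxcl1 and Il1b, and Nos2. Other list genes were named as examples after their values were seen. Il36g, on the pathway list, was not found under this symbol and is not analysed here. Correlations used 100000 two-sided permutations within groups. Receptor rates are counts on 1502 receptor genes per kb of their exons.

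Alternatives were DESeq2's size factors, the DESeq2 1.42.0 Wald test, no filter, only the groups compared, the receptor level as a covariate, a replicate block, a pseudocount of 0.1 for correlations, and each tumor left out in turn. Same-numbered tumors of different groups did not deviate together (median r -0.03 over 65 pairs and -0.02 over 36 pairs), so the numbers were not taken as pairs. Python 3.11.15 was used for tables and permutations (numpy 2.4.6, pandas 2.3.3, scipy 1.17.1) and matplotlib 3.10.9 for plots.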

Additional observations from a re-analysis of the deposited data

How the results depend on the processing

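The count of the 10 genes called was 0 in 90 of 91 alternative settings over the 14 comparisons and in 119 of 120 that left out 1 tumor. The exceptions concern Cxcr2 between KO and WT after anti-PD-1, where the DESeq2 Wald test called 1 gene and leaving out tumors gave 0 to 1, with 1 called without WT anti-PD-1 replicate 2. The shares of all genes called in these settings are not given. For the tumors left out in turn, the log2 fold change of Cxcl5 for anti-PD-1 against IgG was -2.44 to 0.074 at day 1 and -0.40 to 0.87 at day 3, and that of Csf3r was -1.30 to 0.21 for anti-PD-1 against IgG in WT and -1.27 to 0.17 for KO against WT after IgG. Replicate numbers do not pair the tumors, and with a replicate block Cxcl5 at day 3 was -0.043. Without the 3 receptor-rich libraries, a setting chosen after seeing the data, Cxcl5 for anti-PD-1 against IgG in WT was -1.05, with 1 anti-PD-1 tumor left in WT. Of 253 recomputed log2 fold changes 244 kept their direction and side of the threshold, and the cause of the 9 reversals was not tested. The difference of Cxcl5 between anti-PD-1 and IgG at 6 hours, on the log2(CPM + 0.5) scale, ran from -1.89 to -0.84 with tumors left out. The genes were chosen through this contrast, so the range is a description and no support for a difference. With a pseudocount of 0.1 no correlated pair passed either. Fitting only the groups compared equals the reported fit for KO against WT over all treatments. For S100a8, S100a9, Retnlg, Cxcr2 and Cxcl3 most libraries had 3 counts or fewer, which limits what could be detected. A p that missed the threshold does not show that conditions were alike.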
